A study of Saccharomyces cerevisiae with 12 samples.

Results

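The flocculin genes of budding yeast, Saccharomyces cerevisiae, were examined through 6 genes: FLO1, FLO5, FLO9, FLO10 and FLO11, which encode cell-surface adhesins, and FLO8, which encodes a transcription factor that activates them. Members were chosen by gene symbol in the array annotation and make up 6 of 5636 genes measured. Each member had 2 probes, so that 12 of the 10807 probes on the array belonged to them. Total RNA of 3 strains labelled as deletions grown with 2% glucose was hybridised against RNA of a wild type grown in the same medium on 12 two-colour arrays. Their labels read gcr1 null, nup84 null and nup84gcr1 null, the last called double null here, and give no other genotype, treatment or time. Each strain had 4 arrays, described by the submitters as biological replicates with a technical dye swap of each, and so 2 biological samples. The deletion strain was in Cy5 on arrays 1 and 2 and in Cy3 on arrays 3 and 4. The strain background, the clones used and whether the wild-type RNA of different arrays came from the same culture are not given in the sources used here.

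Flocculins are large glycosylphosphatidylinositol-anchored mannoproteins of the outer cell wall. Flo1, Flo5 and Flo9 bind mannose chains on neighbouring cells and bring about flocculation, Flo10 acts in flocculation and adhesion, and Flo11 acts mainly in invasive growth, pseudohyphal growth and biofilm formation. The genes are known to be kept low by the Tup1-Cyc8 corepressor and by silencing near telomeres. Protein kinase A acting through Flo8, and for FLO11 the filamentous growth MAP kinase pathway, activate them. Gcr1 is an activator of glycolytic and ribosomal protein genes, and Nup84 belongs to the structural scaffold of the nuclear pore. The laboratory strain S288C carries a nonsense mutation in FLO8, and the RefSeq annotation of assembly R64, which is based on that strain, lists FLO8 (YER109C) as a pseudogene.

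Values are given as log2 ratios, deletion strain over wild type, after centring each array on its median. The error is the standard error (SE) from limma, pooled over the 3 strains and the larger of fits under both possible assignments of arrays to dye-swap pairs (arrays 1 with 3 and 2 with 4, or 1 with 4 and 2 with 3). Under the first assignment, differences between both samples of a strain had an SD across genes of 0.497, 0.421 and 0.807 in the gcr1-labelled, nup84 null and double-null-labelled strains. One SE per gene is shared by the strains and does not follow a strain's own spread. A gene was called at an adjusted p under 0.05 (Benjamini-Hochberg over 5636 genes). Sample 1 stands for the mean of arrays 1 and 3 and sample 2 for that of arrays 2 and 4, as in the first assignment. The labels do not say which assignment is right, so sample values hold only under the first. In each strain arrays correlated more closely across genes within its pairs (0.735 to 0.826) than within those of the second (0.469 to 0.716). GCN4 on arrays 1 to 4 of the nup84 null read 1.05, 7.52, 1.97 and 7.31, also closer within pairs of the first. The labels were checked on the deleted genes. NUP84 read -3.19 in the nup84 null and -2.74 in the double-null-labelled strain, whereas GCR1 read 1.08 in the gcr1-labelled strain and 0.78 in the double-null-labelled strain, against its label. Where the GCR1 probes lie relative to the deleted part is not given, so these strains are named by their labels.

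The adhesin genes FLO5, FLO1, FLO10 and FLO9 were called higher than wild type in the double-null-labelled strain. FLO5 and FLO10 were also called higher in the gcr1-labelled strain. In the double-null-labelled strain FLO5 was the highest of these genes, at 2.48 ± 0.33 (SE, n = 2) or 5.56-fold. The calls of FLO10 and FLO9 there were lost after scale normalization and with that strain fitted alone. FLO9 read below 0 there on both arrays with the strain in Cy5. No member was called in the nup84 null, and neither FLO11 nor FLO8 was called in any strain. The calls were thus 2 of 6 members higher in the gcr1-labelled strain, where 34.8% of all genes were called and 17.2% were called higher, and 4 of 6 in the double-null-labelled strain, where 39.5% were called and 20.5% called higher. Of 6 members 0 were called in the nup84 null, against 16.7% of genes called and 8.61% called higher, while 2 members had an unadjusted p under 0.05. With the nup84 null fitted alone, 5 members were called, where 38.2% of all genes were called. The member medians were 0.64, 0.57 and 0.82 in the gcr1-labelled, nup84 null and double-null-labelled strains, beside 0.03, -0.01 and 0.03 over all genes. No member was called lower in any strain.

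**Figure D1:**
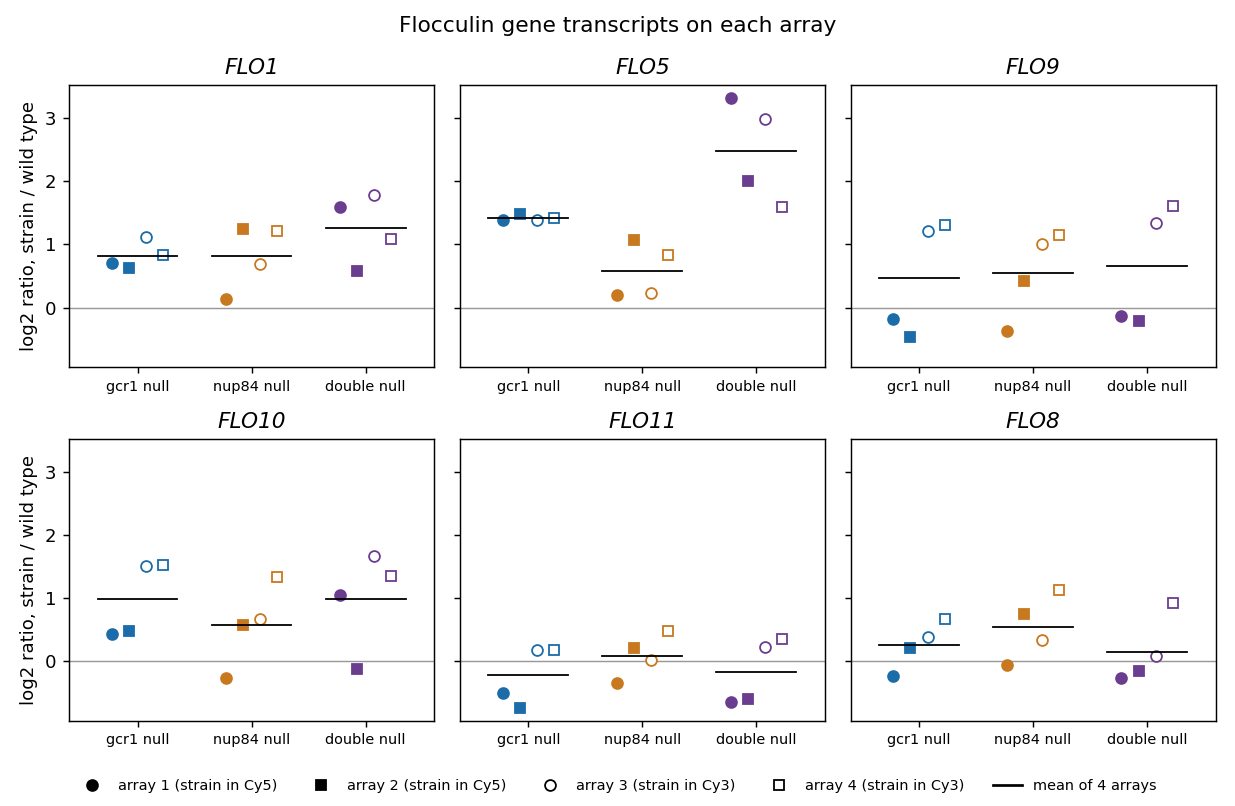
Log2 ratio of deletion strain over wild type (vertical axis) of each flocculin gene on each of the 4 arrays of a strain (horizontal axis). Filled symbols are arrays with the strain in Cy5, open symbols arrays with the strain in Cy3, circles arrays 1 and 3, squares arrays 2 and 4, and lines the mean of 4 arrays. FLO5 lay between 1.59 and 3.32 on all arrays of the double-null-labelled strain, and the open symbols of FLO9 lay above the filled ones in each strain.

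FLO5 (YHR211W, chromosome VIII) encodes a mannose-binding flocculin close in sequence to Flo1. In the gcr1-labelled strain its 4 arrays read 1.38, 1.49, 1.39 and 1.42, the smallest spread of any member in any strain. The nup84 null arrays read 0.20, 1.08, 0.24 and 0.84, with arrays 2 and 4 above arrays 1 and 3. In the double-null-labelled strain they read 3.32, 2.00, 2.99 and 1.59, with arrays 1 and 3 the higher. All nup84 null arrays lay below all arrays labelled gcr1 null, and these below all arrays labelled double null. How many of all genes have arrays so ordered was not counted, and no FLO5 difference between strains was called. FLO5 rose to 1.42 ± 0.33 in the gcr1-labelled strain (2.68-fold; adjusted p = 0.0103) and to 2.48 ± 0.33 in the double-null-labelled strain (adjusted p = 0.000657). In the nup84 null it read 0.59 ± 0.33 (adjusted p = 0.25). The increase in the gcr1-labelled strain was no longer called without arrays 1 and 3 (1.45; adjusted p = 0.0785) or without arrays 2 and 4 (1.39; adjusted p = 0.118) of that strain.

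FLO1 (YAR050W, chromosome I) encodes the dominant flocculin of strongly flocculent strains. Its arrays read 0.70, 0.63, 1.11 and 0.83 in the gcr1-labelled strain. They read 0.14, 1.24, 0.69 and 1.22 in the nup84 null and 1.59, 0.59, 1.78 and 1.09 in the double-null-labelled strain. All 12 values lay above 0, and the ranges of the 3 strains overlapped. FLO1 rose to 1.26 ± 0.28 in the double-null-labelled strain (2.39-fold; adjusted p = 0.00789). It read 0.82 ± 0.28 in both other strains and narrowly missed the threshold in the gcr1-labelled strain (adjusted p = 0.0506), with an adjusted p of 0.0779 in the nup84 null. Without arrays 2 and 4 of the nup84 null its mean there was 0.41, and without arrays 1 and 3 it was 1.23.

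FLO10 (YKR102W, chromosome XI) encodes a flocculin that can also bring about adhesion to agar and plastic when it is expressed. Its arrays read 0.43, 0.48, 1.50 and 1.53 in the gcr1-labelled strain, and it rose to 0.98 ± 0.26 (1.98-fold; adjusted p = 0.02). In the nup84 null the arrays read -0.26, 0.58, 0.67 and 1.34, with a mean of 0.58 ± 0.26 (adjusted p = 0.165). In the double-null-labelled strain they read 1.06, -0.12, 1.66 and 1.35, and FLO10 rose to 0.99 ± 0.26 (adjusted p = 0.0178). Arrays with the deletion strain in Cy3 read higher than those with it in Cy5 in all 3 strains. The call in the gcr1-labelled strain did not hold without arrays 1 and 3 (adjusted p = 0.138) or without arrays 2 and 4 (adjusted p = 0.19). In the double-null-labelled strain it did not hold without arrays 1 and 3 (0.62; adjusted p = 0.119), with that strain fitted alone (adjusted p = 0.0585) or after scale normalization (0.73; adjusted p = 0.0511).

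FLO9 (YAL063C, chromosome I) encodes the third Flo1-type flocculin. Its arrays read -0.18, -0.47, 1.21 and 1.31 in the gcr1-labelled strain, -0.37, 0.42, 1.01 and 1.16 in the nup84 null, and -0.14, -0.21, 1.34 and 1.62 in the double-null-labelled strain. In the gcr1- and double-null-labelled strains, the 2 arrays with the strain in Cy5 lay below 0 and the 2 with it in Cy3 above 1. Averaged over both orientations, FLO9 rose to 0.65 ± 0.21 in the double-null-labelled strain (1.57-fold; adjusted p = 0.0368). It read 0.47 ± 0.21 in the gcr1-labelled strain (adjusted p = 0.12) and 0.55 ± 0.21 in the nup84 null (adjusted p = 0.107). The call in the double-null-labelled strain was lost with the 4 arrays taken as replicates (adjusted p = 0.169), with the strain fitted alone (adjusted p = 0.254), after scale normalization (0.45; adjusted p = 0.105) and with the first probe alone (0.52; adjusted p = 0.103). With arrays 1 and 3 and arrays 2 and 4 as pairs, it was lost in 6 of 6 fits that left out 1 pair of any strain (adjusted p = 0.058 to 0.0882). It held in 6 of 6 such fits with arrays 1 and 4 and arrays 2 and 3 as pairs, where 75.6% to 81.4% of all genes were called.

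**Figure D2:**
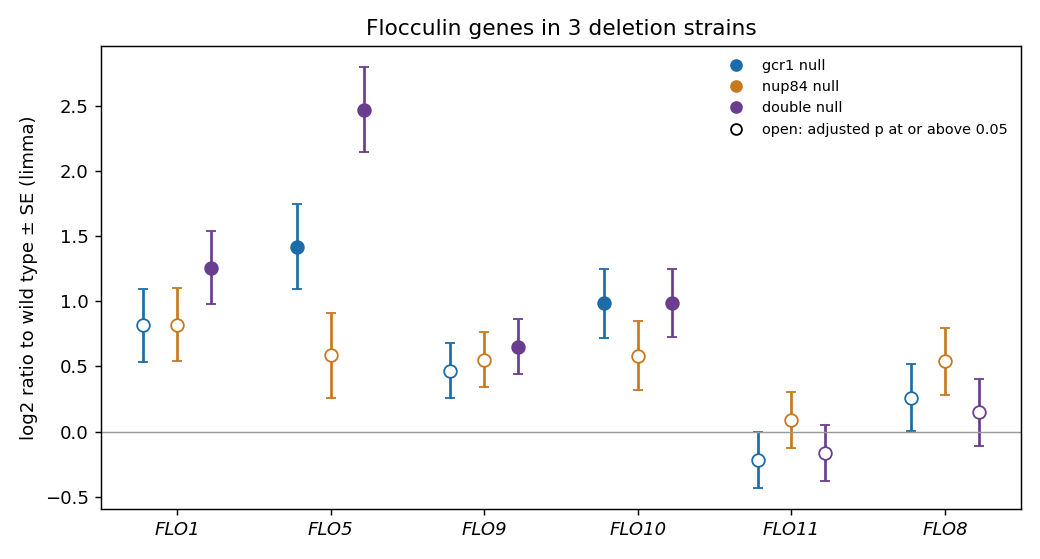
Mean log2 ratio to wild type (vertical axis) with the pooled SE from limma (bars; n = 2 biological samples) for the 6 flocculin genes (horizontal axis) in the 3 strains. Filled points passed an adjusted p of 0.05 and open points did not; FLO5 at 2.48 in the double-null-labelled strain stands highest.

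FLO11 (YIR019C, chromosome IX) encodes the adhesin of invasive and pseudohyphal growth. Its arrays read -0.51, -0.73, 0.19 and 0.19 in the gcr1-labelled strain. They read -0.35, 0.20, 0.02 and 0.48 in the nup84 null and -0.65, -0.60, 0.23 and 0.35 in the double-null-labelled strain. Every strain had arrays on both sides of 0. The means were -0.22 ± 0.21, 0.09 ± 0.21 and -0.16 ± 0.21 (adjusted p = 0.47, 0.815 and 0.575). The 95% intervals of these means, -0.70 to 0.27, -0.40 to 0.57 and -0.65 to 0.32, leave room for changes of that size in either direction.

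FLO8 (YER109C, chromosome V), the activator of flocculin genes, is a pseudogene in the annotation used, and a transcript level does not tell whether the protein is made. Its arrays read -0.23, 0.21, 0.39 and 0.68 in the gcr1-labelled strain, -0.06, 0.75, 0.34 and 1.13 in the nup84 null, and -0.27, -0.15, 0.09 and 0.93 in the double-null-labelled strain. The means were 0.26 ± 0.26, 0.54 ± 0.26 and 0.15 ± 0.26 (adjusted p = 0.473, 0.185 and 0.68). Its highest mean was in the nup84 null, where sample 2 read 0.94 and sample 1 read 0.14.

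The strains were also compared with each other. The difference between the double-null-labelled and gcr1-labelled strains was largest for FLO5, at 1.05 ± 0.46 with a 95% interval of 0.00 to 2.11 (adjusted p = 0.944; unadjusted p = 0.0496). Limma called 0 of 5636 genes in that comparison (0% of genes called, with 298 at an unadjusted p under 0.05) and 0 of 6 members. Against the nup84 null, FLO5 in the double-null-labelled strain was higher by 1.89 ± 0.46, with an interval of 0.84 to 2.94 (adjusted p = 0.107; unadjusted p = 0.00295). In that comparison 0 of 6 members and 0.745% of all genes were called. Between the gcr1-labelled strain and the nup84 null, FLO5 was lower in the latter by 0.84 ± 0.46 on the log2 scale (interval of the difference -1.89 to 0.22; adjusted p = 0.538). There 0 of 6 members, none with an unadjusted p under 0.05, and 0.515% of genes were called. The other members differed between strains by at most 0.44 in size, with adjusted p-values of 0.63 or more.

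The values of the double-null-labelled strain were set against the sum of those in both other strains. For FLO5 the double-null-labelled strain exceeded that sum by 0.47 ± 0.57, with an interval of -0.82 to 1.76 (adjusted p = 0.712). The other members lay below the sum, by -0.38 for FLO1, -0.37 for FLO9, -0.58 for FLO10, -0.04 for FLO11 and -0.65 for FLO8, with adjusted p-values of 0.504 or more. Of 6 members 0 were called, with 0 at an unadjusted p under 0.05, and 0% of all genes were called (909 at an unadjusted p under 0.05). The FLO5 difference turned to -0.02 after scale normalization and to -0.21 without arrays 1 and 3 of the double-null-labelled strain.

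Under the first assignment of arrays to pairs, samples of a strain differed, and did so in the same sense for several members. Under the other assignment, FLO5 pair means were 2.46 and 2.49 in the double-null-labelled strain and 0.52 and 0.66 in the nup84 null. Those of FLO9 in the double-null-labelled strain were then 0.57 and 0.74, against 0.60 and 0.70 under the first. In the nup84 null, sample 2 was above sample 1 for 6 of 6 members, whereas sample 2 was above sample 1 for 48.5% of all genes. FLO1 read 0.41 and 1.23, FLO5 0.22 and 0.96, FLO10 0.21 and 0.96, and FLO9 0.32 and 0.79 in samples 1 and 2. In the double-null-labelled strain the order was the other way for FLO5, at 3.16 and 1.80, for FLO1, at 1.68 and 0.84, and for FLO10, at 1.36 and 0.62. FLO8, FLO9 and FLO11 were higher in sample 2 there. The strain labelled gcr1 null had closer samples, with 1.39 and 1.45 for FLO5 and 0.91 and 0.73 for FLO1. Which of these differences lies in the labelled strain and which in the wild type cannot be told apart from a ratio.

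The dye orientation moved with the values of FLO9, FLO10, FLO11 and FLO8, and its part in these values was not tested beyond a fit with a dye term. Averaged over 12 arrays, the ratio with the strain in Cy5 minus that with it in Cy3 was -1.43 for FLO9, which is larger in size than for 95.7% of genes. It was -0.98 for FLO10 (92.1% of genes smaller), -0.68 for FLO11 (84.3%) and -0.55 for FLO8 (75.1%). FLO1 and FLO5 had smaller differences, -0.31 (45.5% of genes smaller) and 0.17 (25%), beside a median size of 0.33 over all genes. The 2 orientations gave opposite signs for 3 of 6 members in the gcr1-labelled strain, 1 of 6 in the nup84 null and 3 of 6 in the double-null-labelled strain. Over all genes this share was 20.6%, 22.1% and 24.1%, and among called genes 0.764%, 0.106% and 2.25%. With the 4 arrays of a strain as replicates and a dye term for each gene, 4 members were called in each of the strains, where 57.9%, 46.1% and 60.9% of all genes were called in the gcr1-labelled, nup84 null and double-null-labelled strains. FLO11 was not among them in any strain.

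**Figure D3:**
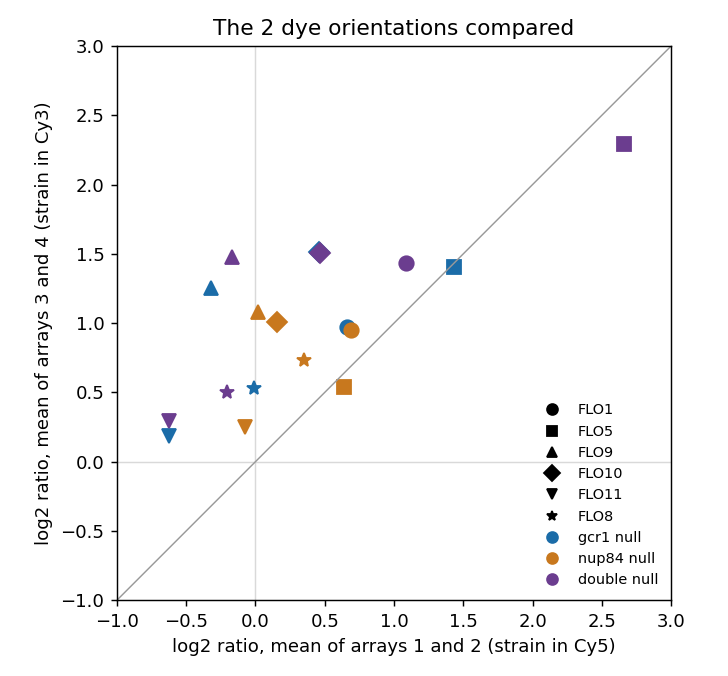
Mean log2 ratio of arrays 1 and 2, with the strain in Cy5 (horizontal axis), against that of arrays 3 and 4, with the strain in Cy3 (vertical axis), for each flocculin gene (symbol) and strain (colour). The line marks equal values; FLO5 lies near it, and FLO9 lies above it by 1.06 to 1.65.

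Both probes of each member had the same sign within each strain. The mean over a strain's arrays differed between probes of a member by 0.01 to 0.26, with a median of 0.10. Over the 3592 genes with 2 probes, the median difference was smaller, at 0.05 to 0.06. The largest difference of a member was that of FLO9 in the double-null-labelled strain, with probes at 0.52 and 0.78. FLO1, FLO5 and FLO9 are known to be close in sequence, and no check was made that their probes separate the 3 transcripts, so signal may be shared between them. They did not read the same on every array. FLO5 exceeded FLO9 by 3.46, 2.21 and 1.65 on arrays 1 to 3 of the double-null-labelled strain, while on array 4 the difference was -0.02. In the nup84 null FLO5 was above FLO9 on arrays 1 and 2 and below it on arrays 3 and 4, with a mean difference of 0.03.

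Members differed in how near they were to each other over 12 arrays, measured as the root mean square (RMS) difference of their log2 ratios. FLO1 and FLO10 were nearest at 0.429, followed by FLO11 and FLO8 at 0.488 and FLO9 and FLO10 at 0.516. FLO5 and FLO11 were farthest apart at 1.92. Among genes outside the family, those nearest to FLO5 were NTH2, SDS24 and ADH4 (RMS difference 0.348 to 0.39). ADH4 read 1.24, 0.54 and 2.43 in the gcr1-labelled, nup84 null and double-null-labelled strains. RRT6, YER158C and SHC1 were nearest to FLO1 (0.282 to 0.291), GAL3, SOR2 and MEI4 to FLO9 (0.255 to 0.285), and YEL073C, PDC6 and ZRG8 to FLO10 (0.23 to 0.312). NAT4, TOS2 and YLR415C were nearest to FLO11 (0.192 to 0.215), and YIL092W, ASF2 and HUL4 to FLO8 (0.241 to 0.244). These likenesses are descriptions over arrays that share samples and dye orientation.

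The adhesin genes other than FLO11 lie near chromosome ends in the R64 gene order. FLO10 was 5 annotated genes from an end of its chromosome, FLO1 6, FLO9 9 and FLO5 14, against 27 for FLO11 and 101 for FLO8. Of 570 measured genes within 20 annotated genes of an end, members left out, 189 were called higher and 59 lower in the gcr1-labelled strain, with a median of 0.28. For the nup84 null 105 were higher and 24 lower, with a median of 0.20. In the double-null-labelled strain 220 were higher and 59 lower, with a median of 0.46. Either way, 43.5%, 22.6% and 48.9% of these end genes were called in the gcr1-labelled, nup84 null and double-null-labelled strains. The shares of all genes called were 34.8%, 16.7% and 39.5%. Over all genes 17.2% were called higher and 17.7% lower in the gcr1-labelled strain, 8.61% and 8.09% in the nup84 null, and 20.5% and 18.9% in the double-null-labelled strain.

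Immediate neighbours did not all move with the member beside them. Of the 24 genes within 2 positions of a member, 19 were measured, of which 4 were higher and 2 lower in the gcr1-labelled strain, 3 and 1 in the nup84 null, and 5 and 2 in the double-null-labelled strain. Next to FLO5, YHR210C rose to 0.69 (adjusted p = 0.0359) in the gcr1-labelled strain and to 1.73 (adjusted p = 0.000513) in the double-null-labelled strain, and read 0.27 (adjusted p = 0.421) in the nup84 null. CRG1, a methyltransferase gene 2 positions from FLO5, rose in all 3 strains, to 1.41, 2.27 and 1.73. On the other side of FLO5, the FLO-like fragment YHR213W read 0.21, 0.43 and 0.34 and was not called. Beside FLO9, GDH3, encoding an NADP-dependent glutamate dehydrogenase, rose to 1.80, 1.41 and 2.14. BDH2, a putative alcohol dehydrogenase gene 2 positions from FLO9, rose to 2.47 in the nup84 null and 2.08 in the double-null-labelled strain (adjusted p = 0.00656 and 0.0032) and read 0.90 in the gcr1-labelled strain (adjusted p = 0.101). YKR104W, 2 positions from FLO10, rose to 0.99 and 0.79 in the gcr1- and double-null-labelled strains (adjusted p = 0.00947 and 0.0215). None of the measured neighbours of FLO1 or FLO11 was called in any strain. Beside FLO8, KAP123, a karyopherin gene, fell to -1.22, -0.71 and -1.34, and GLE2, a nucleoporin gene on the other side, fell to -0.80 and -0.79 in the gcr1- and double-null-labelled strains (adjusted p = 0.0342 and 0.0329).

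**Figure D4:**
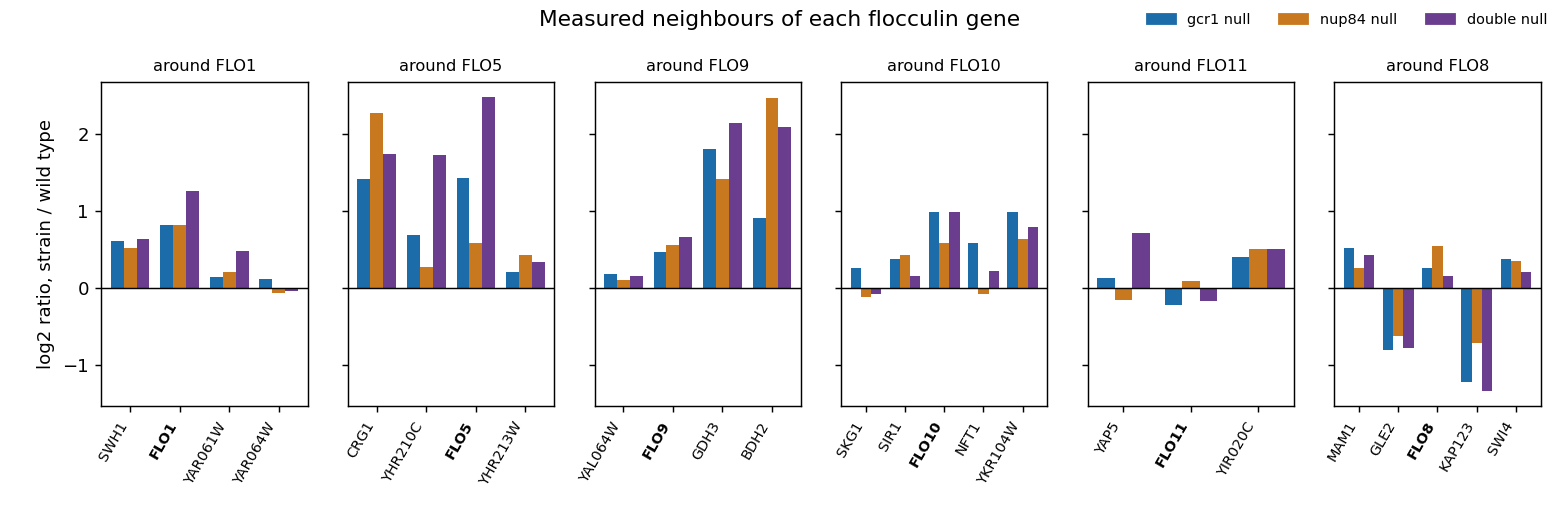
Log2 ratio of deletion strain over wild type (vertical axis) for each flocculin gene (bold) and its measured neighbours within 2 positions in the R64 gene order (horizontal axis), with 1 bar per strain. YHR210C, next to FLO5, read 1.73 in the double-null-labelled strain, while YHR213W on the other side read 0.34.

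Related surface genes were read next. Over all genes 34.8%, 16.7% and 39.5% were called in the gcr1-labelled, nup84 null and double-null-labelled strains, and neither list here had a larger share. Of 6 measured FLO-like genes and gene fragments (9 listed), 0 were called in the gcr1-labelled strain and in the nup84 null, and 2 rose in the double-null-labelled strain, with medians of 0.23, 0.13 and 0.55. YAL065C, a fragment similar to FLO1 that lies near FLO9, rose to 1.87 ± 0.24 there (3.66-fold; adjusted p = 0.00056). Its arrays read 1.23, 0.88, 2.95 and 2.42 in that strain, all above 0, with the arrays in Cy3 the higher. In the gcr1-labelled strain and the nup84 null it read 0.50 and 0.03 (adjusted p = 0.14 and 0.958). There the Cy5 and Cy3 arrays gave opposite signs, -0.17 and 1.17 in the former and -0.71 and 0.76 in the latter. No check was made that the YAL065C signal is separate from that of FLO1. HPF1, encoding a cell wall mannoprotein, rose to 1.01 ± 0.26 in the double-null-labelled strain (adjusted p = 0.0154). Of 4 genes for mating agglutinins, the adhesins of mating cells, 1 rose, FIG2, to 1.20 ± 0.38 in the double-null-labelled strain (adjusted p = 0.0351), with samples at 0.55 and 1.86.

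Genes of the pathways that control flocculins gave mixed calls. Apart from the Tup1-Cyc8 list in the nup84 null, no list among them had a larger share called than all genes. Of 15 genes of the filamentous growth MAP kinase pathway, 1 rose and 1 fell in the gcr1-labelled strain, 1 rose in the nup84 null, and 2 rose and 1 fell in the double-null-labelled strain. The shares called were 13.3%, 6.67% and 20%, against 34.8%, 16.7% and 39.5% of all genes, and the medians were 0.27, 0.14 and -0.08. OPY2, encoding a membrane anchor of the adaptor Ste50, rose in all 3 strains, to 0.74, 1.03 and 1.12 (adjusted p = 0.0362, 0.0192 and 0.00532). SHO1, encoding a membrane sensor, fell to -0.80 in the double-null-labelled strain (adjusted p = 0.0182).

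Of 15 measured genes of the cAMP and protein kinase A pathway, 2 rose and 1 fell in the gcr1-labelled strain, 1 rose in the nup84 null, and 2 rose and 2 fell in the double-null-labelled strain. The shares called were 20%, 6.67% and 26.7%, against 34.8%, 16.7% and 39.5% of all genes, and the medians were 0.31, 0.25 and 0.15. PDE1, encoding the low-affinity cAMP phosphodiesterase, rose to 1.58, 1.06 and 1.55 (adjusted p = 0.00255, 0.0297 and 0.00232). RAS1, encoding a GTPase that stimulates adenylate cyclase, fell to -1.81 and -1.87 in the gcr1- and double-null-labelled strains (adjusted p = 0.000729 and 0.000521). TPK3, encoding a catalytic subunit of protein kinase A, fell to -1.35 in the double-null-labelled strain (adjusted p = 0.00811), with samples at -1.93 and -0.76.

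Of 18 genes for DNA-binding regulators, 5 rose and 1 fell in the gcr1-labelled strain. In the nup84 null 2 rose, and in the double-null-labelled strain 4 rose. The shares called were 33.3%, 11.1% and 22.2%, against 34.8%, 16.7% and 39.5% of all genes, and the medians were 0.14, 0.06 and 0.13. GCN4, whose product activates FLO11 under amino acid starvation, rose to 6.93, 4.46 and 7.12 (adjusted p = 0.00138, 0.0215 and 0.00101), while FLO11 was not called. The GCN4 samples of the nup84 null were 1.51 and 7.41. CIN5, encoding a bZIP factor of stress tolerance, rose to 0.97, 1.14 and 0.97 (adjusted p = 0.0143, 0.0164 and 0.013). NRG2, encoding a repressor of glucose-repressed genes, fell to -1.16 in the gcr1-labelled strain (adjusted p = 0.00297) and read -0.44 in the double-null-labelled strain, where it was not called.

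TUP1, encoding a subunit of the Tup1-Cyc8 corepressor, fell in all 3 strains. Its arrays read -0.57, -1.09, -1.27 and -1.62 in the gcr1-labelled strain, -0.995, -0.52, -1.27 and -1.27 in the nup84 null, and -0.35, -0.84, -0.88 and -1.77 in the double-null-labelled strain. All 12 values lay below 0, and the means were -1.14, -1.02 and -0.96 (adjusted p = 0.0072, 0.0249 and 0.0136). TUP1 was listed with genes of the Tup1-Cyc8, Cdk8 and Hda1 complexes and with RPD3 and SIN3 of another histone deacetylase complex. Of these 11 genes, TUP1 included, 1 fell in each strain. Only SSN8, encoding cyclin C, was called higher among them, at 0.70 in the nup84 null (adjusted p = 0.0489). Of the list, 9.09%, 18.2% and 9.09% were called in the gcr1-labelled, nup84 null and double-null-labelled strains, against 34.8%, 16.7% and 39.5% of all genes. The list medians were 0.05, 0.11 and 0.02.

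Of 12 genes for the Snf1 kinase complex and its partners, 2 rose and 2 fell in the gcr1-labelled strain. In the nup84 null 0 were called, and in the double-null-labelled strain 1 rose and 2 fell. The shares called were 33.3%, 0% and 25%, against 34.8%, 16.7% and 39.5% of all genes, and the medians were 0.37, 0.24 and -0.01. SNF4, encoding the activating subunit, fell to -0.90 and -1.01 in the gcr1- and double-null-labelled strains (adjusted p = 0.0159 and 0.00866). MIG1, encoding a glucose repressor, rose to 0.97 in the gcr1-labelled strain (adjusted p = 0.0132), and SIP2, encoding a beta subunit, rose to 0.78 and 0.96 in the gcr1- and double-null-labelled strains (adjusted p = 0.037 and 0.0143). Of 12 genes for SWI/SNF and telomeric silencing, 1 fell in the gcr1-labelled strain and 0 were called in the nup84 null. In the double-null-labelled strain 1 rose and 1 fell. The shares called were 8.33%, 0% and 16.7%, and the medians were -0.03, 0.05 and -0.05. The one that fell was RAP1, encoding a telomere-binding activator, at -0.74 and -0.87 (adjusted p = 0.0207 and 0.00895), and the riser was SNF5, a SWI/SNF subunit gene, at 0.94 (adjusted p = 0.0276).

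Of 10 genes for effectors of invasive growth, 1 rose and 1 fell in each of the gcr1- and double-null-labelled strains. In the nup84 null 0 were called. The shares called were 20%, 0% and 20% in the gcr1-labelled, nup84 null and double-null-labelled strains, against 34.8%, 16.7% and 39.5% of all genes. Their medians were 0.17, 0.00 and -0.16. In the gcr1- and double-null-labelled strains MEP2, encoding the ammonium permease needed for pseudohyphal growth, rose to 0.94 and 0.92 (adjusted p = 0.0148 and 0.0153). AMN1, whose product acts in mitotic exit and affects separation of daughter cells, fell to -1.15 and -0.58 (adjusted p = 0.00333 and 0.0497).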

How the data were processed

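Total RNA had been amplified and labelled with an Agilent low-input kit, per the labels. The deposited values, 1 per probe and array, were taken to be log2 ratios with Cy5 over Cy3. Log base, scaling, background correction and genome build were not stated in the sources at hand, and no channel intensities were used; the direction follows the dyes in the labels and NUP84. Signs of arrays 3 and 4 were turned and probes of a gene averaged (9271 of 10807 probes named 1 gene). Array medians ran from -0.162 to 0.099, so each array was centred. Arrays of a strain correlated at 0.469 to 0.891 across genes, and the number of samples limits the precision.

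Tests used limma 3.58.1 in R 4.3.3 on pair means of all 3 strains under both possible pairings, keeping the larger p. The fit was also run on simulated data with the same spread in each strain, unlike these data. That run does not give the error rate here. Figures used matplotlib 3.10.9. Beside the members, the text names up to 3 called genes of each list with the largest ratios, the 3 genes nearest each member, and called genes within 2 positions of it; 1 list gene that the rule selects is not reported here by name. Members and lists were chosen with earlier results of these data known. Separate cultures behind the samples rest on the submitters' design text.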

Additional observations from a re-analysis of the deposited data

How the results depend on the processing

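Counts of called members moved with the processing, and so did the share of all genes called. With arrays 1 and 4 and arrays 2 and 3 as pairs, 6, 5 and 5 members were called in the gcr1-labelled, nup84 null and double-null-labelled strains, and 3, 2, 5 and 4 in nup84 null minus gcr1 null, double null minus gcr1 null, double null minus nup84 null, and double null minus the sum. That pairing called 79.4%, 74.4% and 82.1% of all genes in the strains and 55.9%, 41.5%, 63.6% and 64.4% in the differences. It had the smaller SD of pair differences over genes, 0.175 to 0.206 against 0.421 to 0.807. Arrays correlated at 0.469 to 0.716 within its pairs and at 0.735 to 0.826 within the pairs 1 and 3, and 2 and 4. If the latter are the true dye swaps, each pair of the former averages both samples of a strain. The sample difference then cancels, and a small SD and many calls follow from wrong pairing, so they do not speak for it. With the other pairing alone the counts were those of the report. Taking 4 arrays as replicates called 1 member in the nup84 null (35.8% of genes) and 1 in double null minus nup84 null (9.26%), and a dye term on top called 4 in the gcr1-labelled strain, 4 in the nup84 null and 1 in double null minus nup84 null (57.9%, 46.1% and 21.7% of genes). Fitting strains alone called 5 members in the nup84 null and 2 in the double-null-labelled strain (38.2% and 23.8% of genes), and scale normalization 2 in each (34.1% and 32.8%). A limit of 2-fold left 0 in the gcr1-labelled strain and 1, FLO5, in the double-null-labelled strain (4.99% and 6.39% of genes). With the pair number as a replicate block the counts were 2, 0 and 4 in the strains and 0 in each difference, as in the report. Pair differences correlated across genes at r = -0.005 (gcr1 null with nup84 null), 0.552 (gcr1 null with double null) and 0.099 (nup84 null with double null). Under pairs 1 and 4, and 2 and 3, these were 0.004, 0.252 and 0.219. Whether same-numbered samples were paired by design is not given, and these values cannot tell. Leaving out 1 pair of arrays, with 1 and 3, and 2 and 4 as pairs, gave 0 to 3, 0 to 3 and 2 to 3 members called in the strains (9.49% to 48.8%, 0.0887% to 33.7% and 30.7% to 45% of genes) and 0, 0 to 1, 0 to 1 and 0 in the differences. Under the other pairing it gave 4 to 6, 5 and 4 to 5 in the strains (69.8% to 81%, 61.6% to 76.3% and 75.6% to 81.4% of genes) and 1 to 4, 1 to 2, 1 to 5 and 2 to 5 in the differences. A strain with 1 sample left is then assumed to vary like the others. FLO5 and FLO1 stayed called in the double-null-labelled strain in 12 of 12 such fits. The cause of these changes was not tested.

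Signs turned in some comparisons, none of them called in the main result. Scale normalization turned FLO5 in double null minus the sum (-0.025), FLO9 in double null minus nup84 null (-0.166) and FLO10 in double null minus gcr1 null (-0.177). The first probe alone turned FLO9 in double null minus gcr1 null (-0.0003) and in double null minus nup84 null (-0.018). Leaving out 1 pair of arrays gave ranges across 0. In nup84 null minus gcr1 null these were -0.405 to 0.413 for FLO1, -0.149 to 0.318 for FLO9 and -0.121 to 0.680 for FLO8. In double null minus gcr1 null they were -0.368 to 0.375 for FLO10, -0.0039 to 0.110 for FLO11 and -0.353 to 0.126 for FLO8. In double null minus nup84 null they were -0.132 to 0.334 for FLO9, -0.507 to 0.0019 for FLO11 and -0.793 to 0.008 for FLO8. In double null minus the sum they were -0.801 to 0.043 for FLO1, -0.212 to 1.15 for FLO5 and -0.289 to 0.220 for FLO11. Against wild type they were -0.167 to 0.342 for FLO11 in the nup84 null and -0.092 to 0.388 for FLO8 in the double-null-labelled strain. Dim probes could not be left out, because intensities were not used here.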
